A study of Mus musculus with 6 samples.

Results

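The genes described here were 10 standard readouts of the unfolded protein response and the integrated stress response: Atf4, Ddit3, Hspa5, Xbp1, Herpud1, Trib3, Asns, Chac1, Atf3 and Ppp1r15a. They were taken by symbol from the gene-level count tables, which listed 24411 genes, and all 10 were found and passed the filter on low counts. RNA was sequenced from the microdissected cochlear sensory epithelium of C57BL/6N mice at postnatal day 9, in 3 pools of Kir2.1-OE mice and 3 pools of littermate controls, each pool holding 8 cochleae of 4 mice. Kir2.1-OE mice carried 1 copy of Otof rtTA, a doxycycline-dependent activator driven by the otoferlin promoter, and 1 copy of a tet-operator Kir2.1 transgene with an IRES-tau-lacZ reporter. Controls, labelled WT, carried Otof rtTA without the Kir2.1 transgene. Both groups were exposed to doxycycline (DOX) through their mothers, whose drinking water held 0.5 mg/ml, so that activator and drug were common to them. Kir2.1, encoded by Kcnj2, is an inwardly rectifying potassium channel that holds the membrane potential negative. The comparison asked how transcripts differed when this channel kept inner hair cells (IHCs) from firing the calcium action potentials they generate themselves. According to the paper, these IHCs still responded to calcium waves from neighbouring nonsensory cells. The otoferlin promoter directs the transgene to IHCs, whereas the pools also held outer hair cells, supporting cells and other cochlear cells. In these bulk libraries, fewer cells of a type and less RNA per cell therefore cannot be told apart.

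Proteins destined for secretion or the membrane fold in the endoplasmic reticulum (ER). When unfolded proteins accumulate there, the sensors IRE1, PERK and ATF6 increase the capacity for folding and degradation. PERK is also one of the kinases that phosphorylate the translation factor eIF2, and this convergence, the integrated stress response, lowers general protein synthesis while favouring translation of ATF4, a transcription factor for amino acid supply and for feedback genes. Much of the control of ATF4 is therefore translational, and that of XBP1 includes cytoplasmic splicing of its mRNA by IRE1, neither of which is read by a gene-level count.

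The promoters of these genes are textbook targets of the stress transcription factors, and those holding a searched motif are shown. Other stress elements were not searched, so a motif shown does not assign a gene to a single branch of the response. Each of the 10 members matched a RefSeq promoter window (build GRCm38.p6, 250 bases before to 50 bases after the start). Both strands were searched for the ER stress element (CCAAT, any 9 bases, CCACG), which is read by ATF6 and was present in 0.119% of all 32851 promoters, for the core TGACGTG of the unfolded protein response element, read by ATF6 and XBP1 (2.01%), for the C/EBP-ATF response element read by ATF4 and its partners (TGATG, any base, AA; 3.97%) and for the cyclic AMP response element TGACGTCA (1.79%), which shares its first letters with the core. Hspa5 held the ER stress element and the core. Herpud1, Trib3, Asns, Chac1 and Atf3 held the C/EBP-ATF element, Ppp1r15a held the cyclic AMP element, and the windows of Atf4, Ddit3 and Xbp1 held none of these letters. Capitals mark the motif, with 10 bases on each side, written 5′ to 3′ on the strand of the gene.
Hspa5, chr2:34771923-34772053, plus strand: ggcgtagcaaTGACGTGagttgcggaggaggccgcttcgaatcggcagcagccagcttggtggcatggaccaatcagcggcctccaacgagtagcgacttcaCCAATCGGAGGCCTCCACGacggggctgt
Herpud1, chr8:94386307-94386334, plus strand: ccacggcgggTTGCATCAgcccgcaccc
Trib3, chr2:152344029-152344056, minus strand: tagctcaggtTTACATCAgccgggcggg
Asns, chr6:7693215-7693242, minus strand: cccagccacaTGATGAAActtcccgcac
Chac1, chr2:119351039-119351066, plus strand: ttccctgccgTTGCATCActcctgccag
Atf3, chr1:191183426-191183453, minus strand: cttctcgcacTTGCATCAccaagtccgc
Ppp1r15a, chr7:45526263-45526290, minus strand: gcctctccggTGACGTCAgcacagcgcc
In Herpud1, Chac1 and Atf3 the element was the same 8 letters, TTGCATCA, which is the reverse complement of the searched form. A match is a description of these letters and not evidence of binding.

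The libraries held between 35430940 and 41205047 estimated counts. Kcnj2 had normalised counts (counts scaled to a common library size) of 3612, 3813 and 2213 in the Kir2.1-OE pools against 236, 228 and 226 in the controls, a log2 fold change of 3.80 ± 0.20 (SE), so that each library matched its label. Defining IHC markers were present in every library, and their summed normalised count (Otof, Slc17a8 and Atp2a3) ran from 12305 to 15244 in Kir2.1-OE and from 10744 to 12066 in control pools. Several other cell type lists moved with genotype: 6 of 7 neuronal markers were higher, with sums of 32062 to 73020 against 18215 to 25200, and 3 of 4 endothelial markers were higher (4738 to 5115 against 2746 to 3723). Of the markers tested, 2 of 3 melanocyte genes (362 to 464 against 869 to 1061) and 3 of 6 erythroid genes (10899 to 13878 against 17998 to 44888) were lower, and no marker in any of these lists was at 0 in all libraries. Of the 3 IHC markers 1 was called higher, Otof (0.76, adjusted p = 0.00174), which was at -0.10 and not called with the length and GC offsets described below. In the other lists, 1 of 6 hair cell, 2 of 4 outer hair cell and 1 of 6 supporting cell markers were called higher. So were 1 of 6 glial, 2 of 7 cartilage and bone and 2 of 6 fibrocyte and mesenchyme markers. The supporting cell sums were nonetheless lower in every Kir2.1-OE pool (183803 to 198570 against 214542 to 232794). Sums were higher in every Kir2.1-OE pool for hair cells (21193 to 25223 against 17972 to 18571), glia (363830 to 476476 against 267378 to 340788) and cartilage and bone (807432 to 954542 against 388297 to 540121). The outer hair cell sums overlapped, as did those of fibrocytes and mesenchyme. Over all genes tested, 15.5% were called higher and 5.08% lower. With the offsets, 6 neuronal, 2 endothelial, 2 glial and 0 hair cell markers were called higher. So was 1 marker each of outer hair cells, supporting cells, cartilage and bone, and fibrocytes and mesenchyme. Called lower with the offsets were 2 melanocyte markers and 1 erythroid marker, and 9.87% of all genes were called in either direction. Of 7 macrophage markers 0 were called by edgeR, DESeq2 or limma-voom, with 3 at an unadjusted p below 0.05, and of 2 tested B and plasma cell markers 0 were called or reached that p. The share of all genes at that unadjusted p was not computed. The pools also differed in sex, with Xist at 0 or 1 normalised counts in Kir2.1-OE replicates 1 and 2 and control replicate 1 and at 374 to 874 in the others. The part of cell composition in the results below was not tested.

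None of the 10 stress genes passed both thresholds used for a call, an adjusted p below 0.05 and a change above 1.5-fold, although 20.5% of the 15303 genes tested did (15.5% higher and 5.08% lower in Kir2.1-OE). Over all genes 2365 were called higher and 778 lower, and 1897 and 1378 with upper quartile scaling. The count was also 0 with DESeq2 and with limma-voom, while 4 members had an unadjusted p below 0.05 in edgeR. The share of all genes at that unadjusted p was not computed, and it cannot be below the adjusted shares given next. At any fold, 3 members were higher in Kir2.1-OE (Ppp1r15a, Atf3 and Atf4) and 1 was lower (Xbp1), against 27.3% of all genes higher and 23.5% lower by the same rule. The groups did not overlap for 5 members, 4 higher and 1 lower, whereas 61.6% of all genes had groups that did not overlap. The median log2 fold change was 0.07 over the members and 0.01 over all genes. The members' shares were thus near or below those of all genes.

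**Figure D1:**
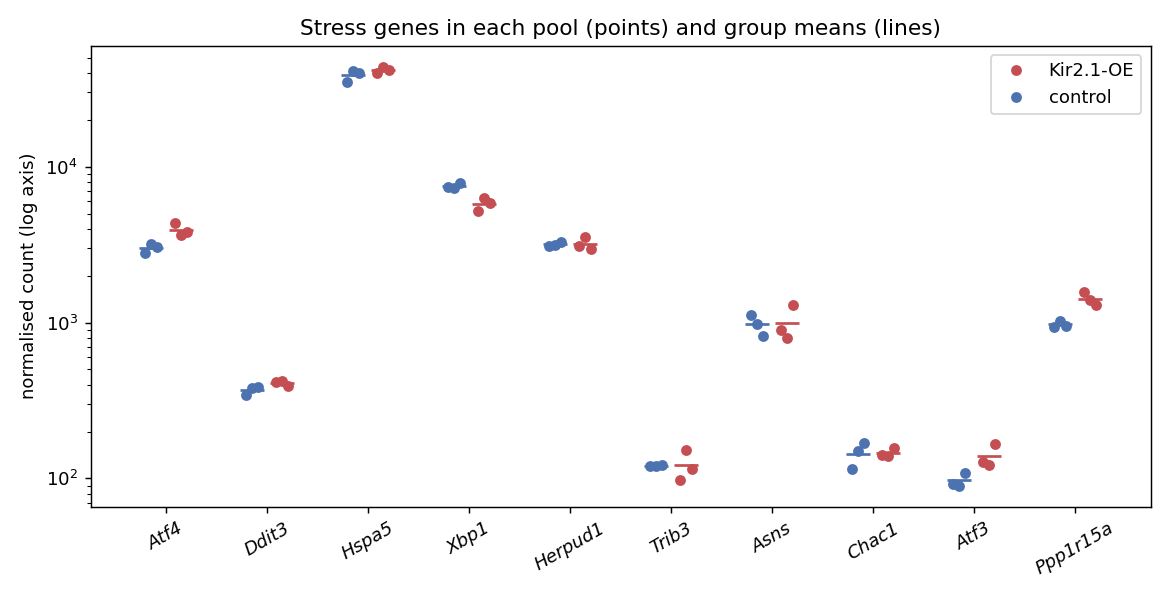
Normalised counts (log axis) of the 10 stress genes in each of 3 Kir2.1-OE (red) and 3 control (blue) pools, with lines at the group means. The red points of Atf4, Atf3 and Ppp1r15a lie above all blue points, as do those of Ddit3 by a small gap. Those of Xbp1 lie below all blue points, and those of Herpud1, Trib3, Asns and Chac1 are interleaved with them.

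The 3 largest increases among the members were in Ppp1r15a, Atf3 and Atf4, genes of the eIF2 branch. Ddit3, Trib3, Chac1 and Asns of the same branch did not pass the test. Ppp1r15a (GADD34; chr7:45522916-45526268) encodes the inducible subunit that directs a phosphatase to eIF2 and so ends the translational block. Its normalised counts were 1578, 1387 and 1292 in Kir2.1-OE and 943, 1023 and 957 in control pools. All 3 Kir2.1-OE pools were above all controls, with a log2 fold change of 0.54 ± 0.09 (SE), or 1.46-fold (95% interval 1.26 to 1.68), and an adjusted p of 0.00118 (edgeR). Without Kir2.1-OE replicate 3, which had the lowest count of its group, the change was 0.59 and passed the 1.5-fold threshold. The gene overlaps Tulp2 on the opposite strand, and the strand setting of the counting is not given in the sources used here.

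Atf4 (chr15:80255184-80257541), the central transcription factor of the integrated stress response, had normalised counts of 4339, 3648 and 3798 in Kir2.1-OE and 2784, 3185 and 3063 in controls. The groups did not overlap, and the means were 3928 ± 363 and 3011 ± 205 (SD, n = 3 each). The change was 1.30-fold (95% interval 1.14 to 1.49), with an adjusted p of 0.00517. Atf4 kept its direction and an adjusted p below 0.05 in all 19 alternative analyses. Among these, the alternative without a fold threshold could not change either value.

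Atf3 (chr1:191170296-191218039), a stress-induced factor that is also an early response gene, was scarce, at 127, 122 and 167 normalised counts in Kir2.1-OE against 92.3, 90.0 and 109 in controls. Its lowest Kir2.1-OE pool was above its highest control pool, and the change was 1.43-fold (95% interval 1.06 to 1.93). The adjusted p of 0.0492 lay just under the threshold and was above it in 13 of 19 alternative analyses, including every one that left out a library. Without Kir2.1-OE replicate 3, in which Atf3 was highest, its log2 change was 0.35 with an adjusted p of 0.203.

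Ddit3 (chr10:127290774-127296288) encodes CHOP, the factor associated with cell death under prolonged ER stress. Its counts of 414, 419 and 394 in Kir2.1-OE were above the 341, 380 and 385 of the controls, but the gap between the nearest pools was small. The change was 1.11-fold (95% interval 0.941 to 1.31), with an adjusted p of 0.263. Ddit3 overlaps the opposite-strand genes Mars and Gm4189, and a second annotated gene carries the same symbol, so the origin of its reads is uncertain. Mars itself was lower in Kir2.1-OE, by 0.23 on the log2 scale (adjusted p = 0.0161).

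The downstream targets Trib3, Chac1 and Asns, which ATF4 activates, for some together with CHOP, did not pass the test in either direction. Trib3 (chr2:152337422-152344032), a pseudokinase that feeds back on ATF4 and CHOP, had 97.5, 152 and 115 normalised counts in Kir2.1-OE and 119, 120 and 122 in controls. Its group means differed by less than the spread of the Kir2.1-OE pools, which extended beyond the controls on both sides. Chac1 (chr2:119351229-119354381), which degrades glutathione, had 141, 139 and 158 against 115, 149 and 169. Here the controls were the more dispersed group and enclosed all Kir2.1-OE values.

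Asns (chr6:7675169-7693254), asparagine synthetase, had 893, 797 and 1294 normalised counts in Kir2.1-OE against 1115, 979 and 821 in controls. Kir2.1-OE replicate 3 was the highest of all pools and replicate 2 the lowest, and without replicate 3 the log2 change was -0.22 (adjusted p = 0.199). The 95% intervals of the fold changes were 0.741 to 1.37 for Trib3, 0.759 to 1.34 for Chac1 and 0.777 to 1.35 for Asns. Changes within these intervals remain compatible with the values of these 3 genes.

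Of the ER-resident branch, Xbp1 was the 1 member that was lower in Kir2.1-OE at an adjusted p below 0.05. Xbp1 (chr11:5520659-5525893), the transcription factor activated by IRE1 splicing, had normalised counts of 5194, 6316 and 5816 in Kir2.1-OE and 7447, 7269 and 7824 in controls. The groups did not overlap and the change was 0.769-fold (95% interval 0.674 to 0.877), with an adjusted p of 0.00484. Spliced and unspliced Xbp1 were not separated in these counts. Hspa5 (chr2:34771970-34777547), the ER chaperone BiP, whose promoter holds the ER stress element printed above, had 39834, 43671 and 41493 in Kir2.1-OE against 34955, 40999 and 39790 in controls. The ranges overlapped, and the change was 1.08-fold (95% interval 0.946 to 1.23) with an adjusted p of 0.303.

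Herpud1 (chr8:94386438-94395377), a membrane protein of ER-associated degradation, had 3096, 3519 and 2970 normalised counts in Kir2.1-OE and 3104, 3127 and 3272 in controls. Its means were 3195 ± 287 and 3168 ± 91.4 (SD, n = 3 each), with a 95% interval of the fold change from 0.893 to 1.14. It overlaps the antisense gene Gm15890. In the two-sided exact permutation test on normalised counts, the 5 members whose groups did not overlap had p = 0.10, the smallest value that 3 against 3 pools allow, and Hspa5 had p = 0.20.

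**Figure D2:**
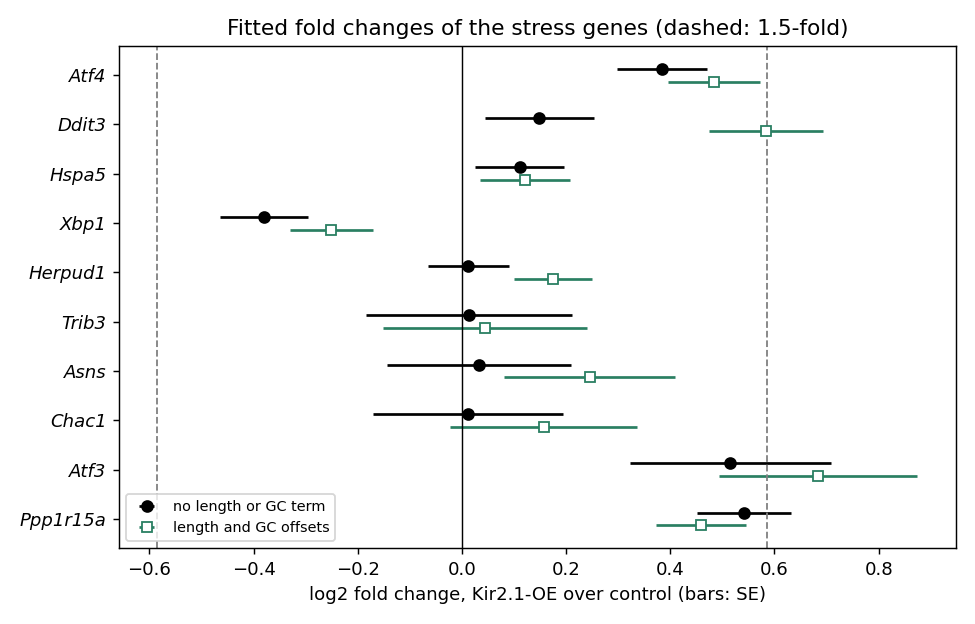
Log2 fold change of each stress gene, Kir2.1-OE over control, with SE, in the fit without a length or GC term (black circles) and with offsets for transcript length and GC content (green squares). Dashed lines mark 1.5-fold. Ddit3 moves from 0.15 to 0.58 and Atf3 from 0.52 to 0.68, while Hspa5 stays near 0.1.

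Levels were compared per kilobase of the longest annotated transcript after scaling to library size, as an RPKM-like value. In controls Hspa5 was highest at 280 ± 23.2 (SD, n = 3), followed by Xbp1 at 94.0 ± 3.55, Herpud1 at 43.2 ± 1.25 and Atf4 at 39.7 ± 2.71. Asns (12.8 ± 1.94), Ddit3 (10.1 ± 0.657) and Ppp1r15a (9.24 ± 0.406) came next, and the ranges of Ddit3 and Ppp1r15a overlapped. Chac1 (2.35 ± 0.441), Trib3 (1.58 ± 0.0192) and Atf3 (1.30 ± 0.139) were lowest. The ranges over 3 pools were separate for 8 of the 9 neighbouring pairs, and for 7 with the median transcript length, which also exchanged Ppp1r15a with Ddit3 and Chac1 with Trib3. With the median length Asns was at 45.6 ± 6.88, overlapping Atf4 at 46.5 ± 3.17 and apart from Ppp1r15a at 11.1 ± 0.489. In Kir2.1-OE pools the level of Ppp1r15a was 13.5 ± 1.38, above the 11.2 ± 0.366 of Ddit3.

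Fold changes in these libraries rose with transcript length across all genes, a trend whose source was not tested. The median log2 fold change was -0.50 for the 658 genes with a longest transcript of up to 1000 nt and 0.81 for the 884 genes above 8000 nt (Spearman rho across genes 0.56; genes are not independent replicates). The members had transcripts of 969 to 3672 nt, against a median of 3380 nt over the genes tested. Of the 10 members, 9 lay above the median of their own length class and 6 above its upper quartile. Ddit3, the shortest, had a log2 fold change of 0.15 where its class had a median of -0.50 and an upper quartile of -0.29. Atf4 stood at 0.38 in a class with a median of -0.16, and Xbp1, at -0.38, was the 1 member below the lower quartile of its class (-0.36).

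With loess offsets for length and GC content, the median over the members was 0.21 and that over all genes -0.04. Atf3 was then called (0.68 ± 0.19, SE; adjusted p = 0.0215), against 9.87% of all genes. Ddit3 reached 0.58 ± 0.11 (adjusted p = 0.00429), just short of 1.5-fold, and Atf4 reached 0.48 and Ppp1r15a 0.46. Xbp1 remained lower, at -0.25 (adjusted p = 0.0354), and Hspa5 was at 0.12. Trib3, Asns, Chac1 and Herpud1 had adjusted p between 0.0999 and 0.882.

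**Figure D3:**
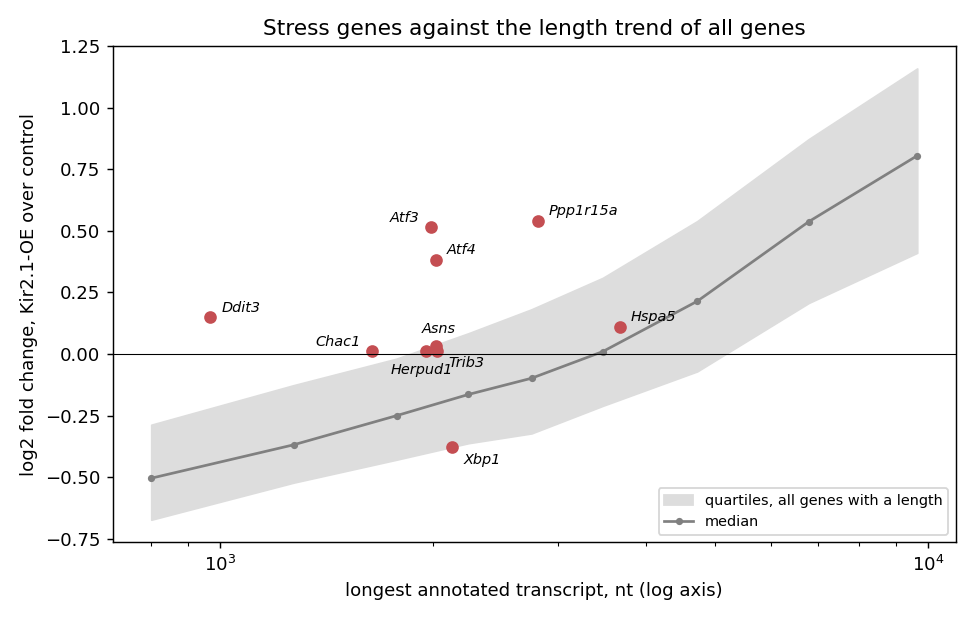
Log2 fold change, Kir2.1-OE over control, of the 10 stress genes (red) against the length of the longest annotated transcript (log axis), over the median (line) and quartiles (grey) of all genes with a length in 9 length classes. Ddit3, Atf3, Atf4 and Ppp1r15a lie farthest above the grey band, and Xbp1 lies at its lower edge.

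For the related lists that follow, the shares over all genes tested were 15.5% called higher and 5.08% called lower. With the offsets 9.87% were called in either direction. At any fold, 27.3% of all genes were higher and 23.5% lower. Counts at an unadjusted p below 0.05 have no such share beside them, and theirs cannot be below these shares at any fold. The list of unfolded protein sensors also held related genes: Ern1, Eif2ak3, Atf6, Atf6b, Mbtps1, Mbtps2, Creb3, Creb3l1 and Creb3l2. Of these 9 genes 3 were called higher and none lower, with a median log2 fold change of 0.33. Ern1, which encodes IRE1, the enzyme that splices Xbp1, had 849, 792 and 724 normalised counts in Kir2.1-OE against 512, 475 and 471 in controls, a change of 0.70 (adjusted p = 0.000456). Creb3l2, an ER membrane-bound factor related to ATF6, changed by 0.62 (adjusted p = 0.000839). The third was Atf6 itself (0.60, adjusted p = 0.000772), named after its value was seen. At the other end stood Creb3 (-0.20, adjusted p = 0.0610) and Atf6b (-0.12, adjusted p = 0.197). These 3 calls were lost with the length and GC offsets, under which Ern1 was at 0.05, Creb3l2 at -0.02 and Atf6 at 0.09.

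Few effectors of protein folding passed both thresholds. Of 21 ER chaperones and folding enzymes 1 was called, lower, and the median was -0.15; at any fold 3 were higher and 9 lower. The called gene was Cnpy2, at 4032, 4785 and 4770 normalised counts in Kir2.1-OE and 7076, 7037 and 7521 in controls (-0.67, adjusted p = 0.000305). With the offsets it was at -0.40 and was not called, which left 0 calls in this list. Ppib, an ER prolyl isomerase, was lower at any fold (-0.50, adjusted p = 0.000561), also with the offsets (-0.53). Hsp90b1, the ER chaperone GRP94, was higher (0.35, adjusted p = 0.0284), and was at 0.51 with the offsets. Hyou1, the ER chaperone GRP170, was at 0.46 (adjusted p = 0.00144) without the offsets and at 0.08 (adjusted p = 0.437) with them.

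For ER-associated degradation 0 of 17 genes were called by edgeR, DESeq2 or limma-voom, with 11 at an unadjusted p below 0.05 in edgeR and a median of -0.07. At any fold 5 were higher and 5 lower. Sel1l (0.42) and Syvn1 (0.40), the core of the HRD1 ligase complex, stood at the upper end, and Derl2 (-0.42) and the Selenos gene, listed as Vimp (-0.43), at the lower. With the offsets Derl2 was at -0.44 (adjusted p = 0.00606), whereas Sel1l (-0.04), Syvn1 (0.04) and Vimp (-0.06) no longer passed at any fold.

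Of the 14 genes of the eIF2 kinases and eIF2 complexes, 3 were called higher and none lower, although the median was -0.23. Eif2ak2, which encodes the double-stranded RNA-activated kinase PKR, had 1178, 775 and 697 normalised counts in Kir2.1-OE against 386, 462 and 421 in controls. Its log2 fold change of 1.06 (adjusted p = 0.00139) was 1.03 with the length and GC offsets and remained called. The others were the GCN2 activator Gcn1, listed as Gcn1l1 (0.82, adjusted p = 0.000235), and the GCN2 gene Eif2ak4 (0.73, adjusted p = 0.000893), named after its value was seen; with the offsets these were -0.16 and 0.35 and were not called. Eif2s1 (-0.43, adjusted p = 0.00269) and Eif2s3x (-0.39, adjusted p = 0.0139), subunits of eIF2, were lower at any fold. Eif2s3x had 6958, 7206 and 9050 normalised counts in Kir2.1-OE against 9297, 10525 and 10660 in controls. Within each group its lowest values were in the pools with Xist at 0 or 1. The part of pool sex in its change was not tested. Eif2ak3, the PERK gene, was measured with the sensors and was at 0.33 (adjusted p = 0.00928), and at 0.05 with the offsets (adjusted p = 0.667).

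The list of 27 further ATF4 target genes held 26 that were tested, and 0 were called by edgeR, DESeq2 or limma-voom, with 12 at an unadjusted p below 0.05 in edgeR. At any fold 6 were higher and 4 lower, with a median of 0.09. The cystine transporter Slc7a11 had 630, 604 and 669 normalised counts in Kir2.1-OE against 424, 376 and 476 in controls, without overlap (0.58, adjusted p = 0.00232). With the offsets it was at 0.26 and did not pass (adjusted p = 0.106). Phgdh, the first enzyme of serine synthesis, went the other way, at 3158, 3460 and 3805 against 5305, 5195 and 4882 (-0.56, adjusted p = 0.000631), and was at -0.48 with the offsets (adjusted p = 0.00266). Cebpb (0.51, adjusted p = 0.0549) and Cth (-0.56, adjusted p = 0.0931) did not pass. Of 12 cytosolic aminoacyl-tRNA synthetases, many of which are ATF4 targets, 1 was called: Eprs (0.73, adjusted p = 0.000831). With the offsets Eprs was at 0.50 and was not called. The direction of Aars depended on the offsets: it was at 0.37 without them (adjusted p = 0.00600) and at -0.28 with them (adjusted p = 0.0248). Mars was lower as given above, and Sars was at -0.17 (adjusted p = 0.0766) and, with the offsets, at -0.32 (adjusted p = 0.0105).

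Immediate-early genes, which are transcribed within minutes of a stimulus such as depolarisation, were set beside the members, since Atf3 is also counted among them. Of 18 tested immediate-early genes 7 were called higher and none lower, with a median of 0.38, and 4 were called with the offsets. Arc had 127, 78.9 and 88.9 normalised counts in Kir2.1-OE against 21.1, 50.9 and 36.6 in controls (1.43, adjusted p = 0.00614), and was at 1.20 with the offsets, where it was also called. Fosl2 was at 0.79 (adjusted p = 0.000932) and, with the offsets, at 0.11 (adjusted p = 0.512). Btg2 (-0.48, adjusted p = 0.00180) was lower and Dusp1 (-0.24, adjusted p = 0.351) did not pass. The neuronal marker sums given above were also higher in every Kir2.1-OE pool, and their part in this result was not tested.

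Of 14 heat shock genes, which include cytosolic and mitochondrial chaperones, 2 were called higher and 1 lower, with a median of 0.02. The inducible chaperones Hspa1a (0.70, adjusted p = 0.00216) and Hspa1b (0.69, adjusted p = 0.00365) are near-identical copies whose reads can be shared, so that their separate values are uncertain. Hspe1, a mitochondrial chaperonin, was lower (-0.69, adjusted p = 0.000708), as was Dnajb1 at any fold (-0.25, adjusted p = 0.0271). None of these 3 calls was kept with the offsets.

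**Figure D4:**
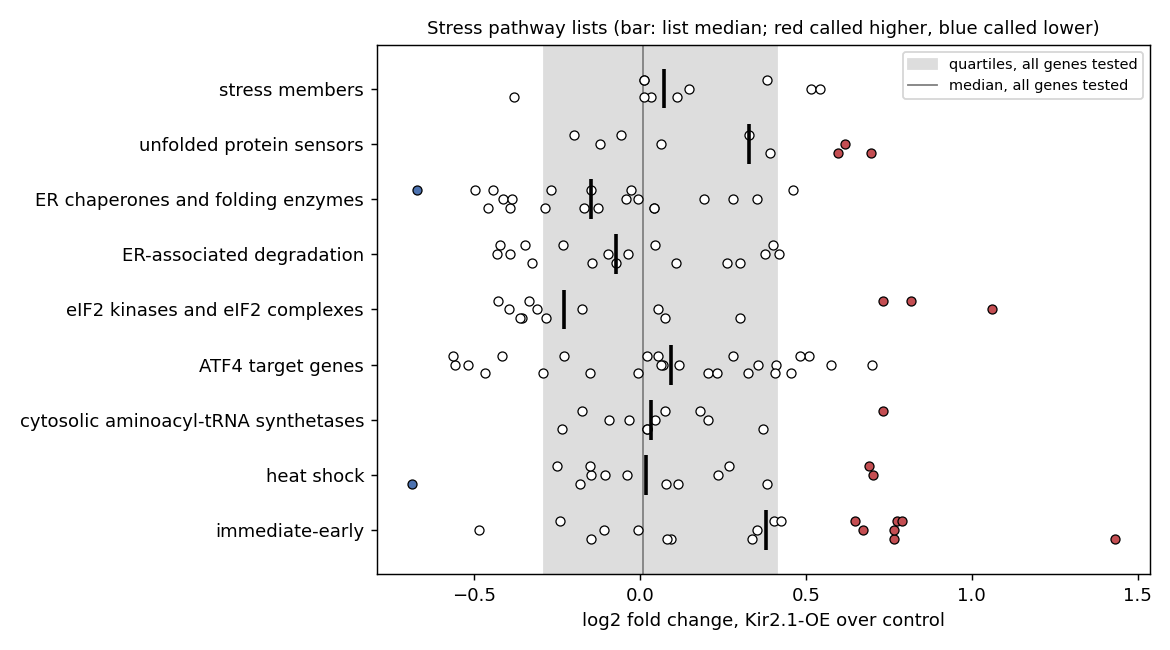
Log2 fold change, Kir2.1-OE over control, of each tested gene in the stress genes and 8 related lists, with the list median (bar) and the quartiles of all genes tested (grey). Filled points were called higher (red) or lower (blue); the stress genes have none, and the immediate-early list has 7.

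The genes whose log2 CPM followed Atf4 most closely over the 6 libraries were Slc35e2 (Pearson r = 0.998), 9130221H12Rik (0.997) and D17H6S53E (0.997), and those closest to Hspa5 were Ccdc124 (0.995), Pcdh18 (0.991) and Htra1 (0.983). They were the highest of 13645 genes over only 6 points that share genotype and library composition, and the coefficients are given as a description.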

How the data were processed

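Poly(A) RNA was sequenced as paired 150-base reads and processed by the authors with an nf-core pipeline to Salmon estimated counts per gene on mm10, which they deposited per library; 6.95% of values were not whole. The column of control replicate 1 is numbered 4 in its file header; GEO's record was followed. Tool versions were not given in the sources used here. Counts were rounded, filtered with filterByExpr (15303 genes), scaled by TMM and tested with edgeR 4.0.16 (quasi-likelihood, R 4.3.3; Benjamini-Hochberg over all genes tested). A call needed an adjusted p under 0.05 and a fold change above 1.5. SE and 95% intervals came from the quasi-likelihood fit, on the log2 scale. DESeq2 1.42.0, limma-voom (limma 3.58.1), other scalings and filters, length and GC offsets (loess, span 0.4), an Xist covariate and leaving out each library were alternatives. Transcript lengths came from GENCODE vM21; length classes were set after the trend was seen. From each related list, the 2 highest and 2 lowest log2 fold changes at a mean normalised count of at least 50 were named. The members and lists were chosen with earlier results of these data known. The procedure was tested on simulated counts. Each total count gives a counting floor of 3 reads, far below every member.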

Additional observations from a re-analysis of the deposited data

How the results depend on the processing

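The number of stress genes called was 0 under every other scaling, filter and tool and was 1 with the length and GC offsets (Atf3), 1 with these offsets and the replicate block, and 4 with no fold change threshold; leaving out 1 library gave 0 to 1. The count over all genes (3143) was 1511 with the offsets, 1242 with offsets and block and 7774 with no fold threshold, and 2414 to 3448 with 1 library left out. The 8 related lists held 18 calls, against 5, 3 and 68 in those settings and 16 to 20 with 1 library left out. The members' median log2 fold change (0.07) was -0.018 under upper quartile scaling, which lowered all genes by a median of 0.09, 0.21 with the offsets and 0.20 with offsets and block, and 0.07 to 0.14 with 1 library left out. Upper quartile scaling also changed the share of calls that were higher from 75.2% to 57.9%. The Kcnj2 change stayed between 3.64 and 4.00. Atf4, Ppp1r15a and Hspa5 kept direction and side of the adjusted p threshold in all 19 alternatives. Xbp1 lost an adjusted p below 0.05 in 1 (offsets with block, adjusted p = 0.0879), Atf3 in 13, and Ddit3 gained it in 2. The alternative without a fold threshold could not change the fold change or adjusted p of any member. Members with values near 0 changed sign: under upper quartile scaling Herpud1 (-0.077), Trib3 (-0.075), Asns (-0.058) and Chac1 (-0.076); Trib3 with limma-voom (-0.0079); with the Xist covariate Herpud1 (-0.0067) and Trib3 (-0.0054); and with a library left out Herpud1 (-0.088 to 0.049), Trib3 (-0.20 to 0.14), Asns (-0.22 to 0.14) and Chac1 (-0.13 to 0.14). Same-numbered pools had deviations from their group means correlated at -0.10, -0.22 and -0.21. With 3 pools per group these values cannot tell whether same-numbered pools shared a litter or a batch. With the replicate block 2938 genes and 0 members were called, Atf3 had an adjusted p of 0.0779 and Trib3 was at -0.0073. The causes were not tested. Non-overlap, recomputed under other scalings in an analysis chosen after seeing the data, held for 4 or 5 members.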
